A study of Mus musculus with 2 samples.

Results

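Homeobox genes of the TALE class were followed across the cell types of the fetal mouse testis: *Meis1*, *Meis2*, *Meis3*, *Pknox1*, *Pknox2*, *Pbx2* and *Pbx3*. The members were chosen by gene symbol, and all 7 were found once each among the 32285 genes measured. Whole testes of male embryos at E14.5 went through the 10x multiome assay, in which each nucleus gives both its RNA and the DNA that a transposase can reach and cut (ATAC, a readout of open chromatin). The embryos came from a cross of homozygous *Nr5a1-cre* mice with homozygous *Rosa-tdTomato* females, so every nucleus belongs to the same genotype group. Both alleles are those of the cross as the labels give it, the *Nr5a1* promoter drives the Cre, and no nuclei of a wild type were analysed here. The study asked how interstitial progenitors become fetal Leydig cells, the androgen-producing cells of the fetal testis. The nuclei gave 1 RNA library and 1 ATAC library, and the sources used here do not give the number of embryos pooled. No value below has a replicate, so no test between animals was possible, and the exact 95% intervals cover counting error only.

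TALE homeodomain proteins carry extra residues in a loop of the homeodomain and work largely as partners of each other and of HOX proteins. The MEIS and PKNOX (PREP) proteins bind a TGACAG core on DNA and hold PBX proteins through a domain near their amino terminus. PBX proteins bind DNA together with HOX proteins, for which TGATTNAT is a shared motif, and in many mesenchymal tissues these complexes take part in positional identity and organ outgrowth.

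The matrix held 9833 barcodes with 122049390 RNA molecules (UMIs), and 7198 nuclei were kept, with a median of 7948 UMIs and 4477 ATAC fragments per nucleus and 706 to 705765 UMIs. Nuclei were clustered without the members and without the peaks near them, and the clusters were named from marker genes into 12 classes. These were 2252 progenitor-like, 1076 contractile-like, 974 germ-like, 832 Sertoli-like, 744 Leydig-like, 566 surface epithelium-like, 393 mesonephric mesenchyme-like, 95 endothelial-like and 86 supporting-like nuclei, with 67 each in the pericyte-like and immune-like classes and 46 in the erythroid-like class. The share of nuclei past the automatic doublet threshold of Scrublet, a caller that scores nuclei against simulated doublets, ran from 4.80% of progenitor-like to 20.03% of Leydig-like, 23.5% of germ-like and 35.8% of endothelial-like nuclei. Levels are sums of UMIs. Nuclei below the threshold held 15689671 of 17470245 progenitor-like, 11060560 of 20516741 germ-like and 528925 of 2321516 endothelial-like UMIs. That threshold reads the RNA of all genes, members included. A germ-like cluster of 78 nuclei with a median of 34670 UMIs had its second highest score for Sertoli markers. Levels are therefore given for all kept nuclei and, beside them, for nuclei below the threshold, and how far doublets or free RNA enter a level was not tested.

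The sequences below carry the chromatin results that follow. They are the *Meis1* promoter from RefSeq (GRCm38/mm10, chr11:19018920-19019219, minus strand) and the bases of the *Pknox1* promoter peak just before the gene start (mm10, chr17:31564434-31564733, plus strand), 2 starts where chromatin and RNA were set against each other. With them stand the centres of a peak in an intron of *Pknox2* (mm10, chr9:36942614-36942913, plus strand) and of a peak beyond the 3' end of *Meis2* (mm10, chr2:115775617-115775916, plus strand), both of which differed between classes. Capitals mark CG pairs in the first 3 and, in the last, a match to the PBX and HOX motif TGATTNAT on the other strand.
Meis1 promoter: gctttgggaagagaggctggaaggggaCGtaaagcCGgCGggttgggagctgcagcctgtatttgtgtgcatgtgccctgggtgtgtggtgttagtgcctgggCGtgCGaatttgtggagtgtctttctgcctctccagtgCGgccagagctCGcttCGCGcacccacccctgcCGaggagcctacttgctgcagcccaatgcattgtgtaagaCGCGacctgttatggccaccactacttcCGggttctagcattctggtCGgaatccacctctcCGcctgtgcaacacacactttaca
Pknox1 promoter peak: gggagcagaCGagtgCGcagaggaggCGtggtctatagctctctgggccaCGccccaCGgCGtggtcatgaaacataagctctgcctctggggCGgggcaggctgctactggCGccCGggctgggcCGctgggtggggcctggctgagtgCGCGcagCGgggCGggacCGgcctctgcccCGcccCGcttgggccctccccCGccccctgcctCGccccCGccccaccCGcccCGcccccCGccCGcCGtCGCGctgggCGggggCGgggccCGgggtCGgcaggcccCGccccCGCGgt
Pknox2 intron peak: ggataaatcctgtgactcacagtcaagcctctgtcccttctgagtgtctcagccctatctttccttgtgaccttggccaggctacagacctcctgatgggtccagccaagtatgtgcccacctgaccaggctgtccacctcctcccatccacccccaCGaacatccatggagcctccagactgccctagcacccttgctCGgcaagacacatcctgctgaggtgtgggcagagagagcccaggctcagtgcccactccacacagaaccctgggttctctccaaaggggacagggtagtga
Meis2 distal peak: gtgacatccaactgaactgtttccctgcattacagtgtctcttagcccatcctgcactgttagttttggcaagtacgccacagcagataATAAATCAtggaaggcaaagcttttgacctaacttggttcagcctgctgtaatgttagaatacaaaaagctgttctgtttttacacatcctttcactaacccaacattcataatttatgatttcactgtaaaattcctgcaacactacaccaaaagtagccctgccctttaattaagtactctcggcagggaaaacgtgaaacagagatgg
The *Pknox1* sequence holds 34 CG pairs in 300 bases and the *Meis1* promoter 15, against a median of 7 over the 32851 RefSeq promoters of that length. The distal sequences hold 2 and 3 CG pairs, close to the median of 4 over the central 300 bases of all peaks. None of the 4 holds a TGACAG core on either strand. RefSeq promoters were found for 4 of the 7 members, *Meis1*, *Meis2*, *Meis3* and *Pbx2*.

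The members covered a wide range of RNA level and of spread over nuclei. In kept nuclei *Pbx3* (chr2:34171457-34373142, minus strand) gave 64102 UMIs, *Meis1* (chr11:18879817-19018985, minus strand) 48973, *Meis2* (chr2:115863064-116065839, minus strand) 46103 and *Pknox2* (chr9:36890982-37147407, minus strand) 35731. A UMI of these 4 genes was present in 66.5% to 81.3% of nuclei. *Pknox1* (chr17:31564734-31607693, plus strand) gave 3929 UMIs, *Pbx2* (chr17:34591266-34597400, plus strand) 935 and *Meis3* (chr7:16175090-16186504, plus strand) 285. *Meis3* was found in 3.71% of nuclei and *Pbx2* in 11.4%, so counting error limits every statement on these 2 genes. UMIs in nuclei come largely from unspliced RNA, so long genes give more of them, and levels are compared only within a gene. A level is given as CPM, the UMIs of the gene per 1000000 UMIs of the class. *Pbx2* overlaps *Gpsm3* on the same strand, where the counting could split reads, and *Meis1*, *Pknox1*, *Pknox2* and *Pbx3* each overlap an annotated antisense gene.

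**Figure D1:**
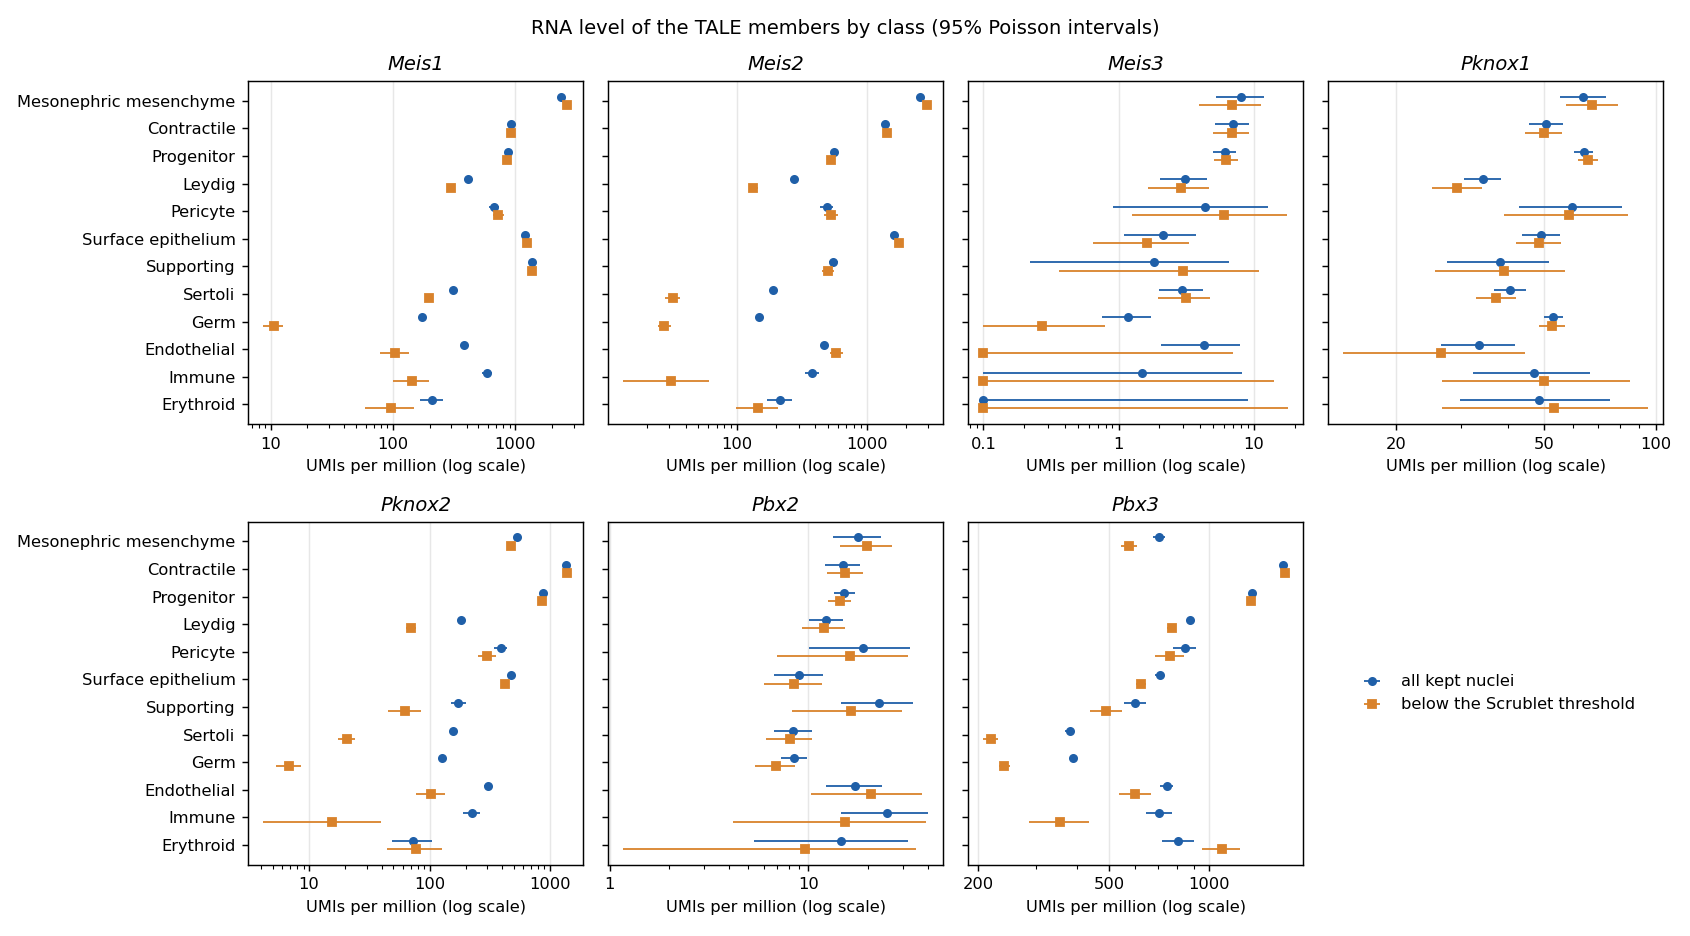
RNA level of each member in the 12 classes, in CPM on a log axis, with exact 95% Poisson intervals. Circles are all kept nuclei and squares those below the Scrublet threshold, and levels of 0 (*Meis3*) stand at the left edge. *Meis1*, *Meis2* and *Pknox2* separate the mesenchymal from the Sertoli-like and germ-like classes, more so below the threshold, while *Pknox1* and *Pbx2* span narrower ranges.

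*Meis1* and *Meis2*, the MEIS genes with the most UMIs, peaked in the mesonephric mesenchyme-like nuclei, the mesenchyme next to the gonad. *Meis1* stood at 2381 CPM there (2327 to 2436), 1364 in supporting-like, 1210 in surface epithelium-like, 921 in contractile-like and 866 in progenitor-like nuclei. It was lower in pericyte-like (674), immune-like (589), Leydig-like (413), endothelial-like (382), Sertoli-like (309), erythroid-like (209) and germ-like nuclei (173). Neighbours in this order differed by more than counting error except pericyte-like from immune-like and erythroid-like from germ-like. Below the doublet threshold *Meis1* stood at 2639 in the mesonephric class and 854 in progenitor-like nuclei, while immune-like nuclei stood at 142, endothelial-like at 104 and germ-like at 10.6. Pericyte-like nuclei stood at 729 (656 to 808) and erythroid-like at 96.9 (59.2 to 150), so neither tie remained in that set. Sertoli-like nuclei still gave 199 (188 to 209), so *Meis1* separated Sertoli-like from germ-like nuclei in that set. With every nucleus thinned to 2000 UMIs, a *Meis1* UMI was found in 96.9% of mesonephric mesenchyme-like, 73.3% of progenitor-like, 46.4% of Leydig-like, 35.8% of Sertoli-like and 10.5% of germ-like nuclei, the last 2.15% below the threshold. Without thinning the shares of these classes were 99.5%, 94.4%, 84.0%, 76.3% and 30.1%. Nuclei too shallow to thin were left out, 40 of them contractile-like, 16 progenitor-like and at most 6 in any other class.

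*Meis2* followed the same leading class with a steeper order. It reached 2599 CPM in mesonephric mesenchyme-like nuclei (2542 to 2656), 1644 in surface epithelium-like and 1391 in contractile-like nuclei. Progenitor-like (560), supporting-like (552), pericyte-like (491) and endothelial-like nuclei (470) formed a middle group in which no class differed from its neighbour. Immune-like (381), Leydig-like (278), erythroid-like (214), Sertoli-like (189) and germ-like nuclei (147) followed, and erythroid-like did not differ from Sertoli-like. Below the threshold *Meis2* remained in endothelial-like nuclei (586, 523 to 655), but stood at 134 in Leydig-like, 32.0 in Sertoli-like, 30.7 in immune-like and 27.5 in germ-like nuclei. The Sertoli-like, germ-like and immune-like levels of *Meis2* were thus lower without the nuclei past the threshold, whereas its levels in mesonephric mesenchyme-like (2917) and contractile-like nuclei (1435) were not.

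*Meis3* gave the fewest UMIs of the 7. They came to 25 in mesonephric mesenchyme-like nuclei (8.09 CPM, 5.23 to 11.9), 47 in contractile-like (6.96) and 106 in progenitor-like nuclei (6.07). Leydig-like nuclei gave 26 UMIs (3.07 CPM), Sertoli-like 29 (2.94), surface epithelium-like 12 (2.12) and germ-like 24 (1.17, and 3 UMIs below the threshold). No class differed from its neighbour in this order, and erythroid-like nuclei held 0 UMIs of *Meis3*, with an upper bound of the exact interval of 8.98 CPM.

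*Pknox1* and *Pknox2*, which share the DNA core of the MEIS proteins, differed in how evenly they were expressed. *Pknox1* lay between 64.0 CPM in progenitor-like (60.3 to 67.9) and 33.6 in endothelial-like nuclei (26.6 to 41.9), with germ-like nuclei at 53.1, Sertoli-like at 40.7 and Leydig-like at 34.3. No class differed from its neighbour, and the germ-like level was 52.7 below the threshold, so *Pknox1* alone among the members kept a germ-like level within 1.5 fold of the progenitor-like level in both sets. *Pknox2* was highest in contractile-like nuclei, the class named from smooth muscle genes, at 1349 (1322 to 1377). That class scored 1.80 for its own markers and 1.38 for progenitor markers, so the 2 classes are not sharply apart. *Pknox2* then stood at 873 in progenitor-like, 536 in mesonephric mesenchyme-like, 477 in surface epithelium-like and 390 in pericyte-like nuclei. Leydig-like (183), supporting-like (174) and Sertoli-like nuclei (157) were not distinguishable as neighbours, and germ-like nuclei stood at 126. Below the threshold *Pknox2* was 70.5 in Leydig-like, 63.0 (45.4 to 85.2) in supporting-like, 20.6 (17.4 to 24.3) in Sertoli-like and 6.78 in germ-like nuclei (75 UMIs). Contractile-like nuclei then stood at 1385, and Sertoli-like nuclei were no longer tied with supporting-like ones. In thinned nuclei it was detected in 88.5% of contractile-like, 75.0% of progenitor-like, 20.2% of Leydig-like, 11.3% of Sertoli-like and 8.23% of germ-like nuclei, the last 0.808% below the threshold, and without thinning these shares were 96.0%, 95.1%, 45.2%, 24.8% and 23.5%.

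Among the PBX genes, *Pbx3* was highest in contractile-like and progenitor-like nuclei and fell to its lowest levels in the germ-like and Sertoli-like classes. *Pbx3* led in contractile-like nuclei with 1679 CPM (1648 to 1710), then in progenitor-like nuclei (1354) and the Leydig-like class (877). Classes from Leydig-like down to immune-like (707) did not differ from their neighbours, and supporting-like nuclei (597) came before germ-like (389) and Sertoli-like (379), which did not differ. Below the threshold *Pbx3* stayed at 241 in germ-like nuclei (232 to 250, 2661 UMIs) and 219 in Sertoli-like nuclei (208 to 230), intervals that no longer overlapped. Immune-like nuclei then stood at 353 (285 to 433), and erythroid-like nuclei at 1095 (957 to 1247), above Leydig-like nuclei at 773. The germ-like level of *Pbx3* was then 0.179 of the progenitor-like level, where that of *Pknox2* was 0.00782. In Leydig-like nuclei thinned to 2000 UMIs, *Pbx3* was found in 64.8%, against 74.1% for the progenitor-like and 35.5% for the germ-like class, and without thinning in 89.4%, 88.9% and 73.1%. *Pbx2* ran from 25.1 in immune-like nuclei, on 17 UMIs, to 15.2 in progenitor-like, 12.3 in Leydig-like, 8.48 in germ-like and 8.42 in Sertoli-like nuclei. No class differed from its neighbour, but the Sertoli-like level was 0.553 of the progenitor-like one (0.427 to 0.710). Below the threshold immune-like nuclei stood at 15.4 on 4 UMIs, and endothelial-like nuclei came first with 20.8 on 11 UMIs.

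Progenitor-like and Leydig-like nuclei were compared first, since their relation was the question of the study. A gene was called at a ratio of at least 1.5 in either direction with an interval that excluded 1, among genes with at least 100 UMIs over both classes. All 7 members passed that minimum, and 6 of 7 were higher in progenitor-like nuclei, where 21.8% of 11688 genes were, and 0 were lower, where 19.1% of genes were. The median log2 ratio was 0.98 over the members and -0.03 over all genes tested. *Pknox2* differed most, at 4.77 (4.52 to 5.03), and *Meis1* was 2.09 (2.02 to 2.17) and *Meis2* 2.02 (1.93 to 2.11). *Meis3* at 1.97 (1.28 to 3.16, from 106 and 26 UMIs), *Pknox1* at 1.87 (1.64 to 2.13) and *Pbx3* at 1.54 (1.504 to 1.585) were also called, the last barely past the threshold. The call of *Meis2* was lost at 1.31 (1.26 to 1.37) with no doublets removed and at 1.27 (1.21 to 1.34) with stricter minimums. That of *Meis3* was lost at 1.23 (0.707 to 2.15) with a cluster resolution of 0.3 and at 1.53 (0.568 to 5.14) after thinning. *Pbx2* was not called, at 1.24 (0.984 to 1.57).

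The doublet threshold and the cycling nuclei moved these ratios. Below the threshold *Pknox2* was 12.3 (11.1 to 13.6), *Meis2* 3.996 and *Meis1* 2.85, with the same 6 members called. The share of all genes called was not computed in that set. The progenitor-like class joined a cluster of 1522 nuclei and a cycling cluster of 730, in which a list of cell cycle genes summed to 15100 CPM against 4093. The marker score for contractile cells was 0.90 in the cycling and 0.21 in the other cluster. *Meis2* stood at 826 CPM in the cycling and 364 in the other cluster, a ratio of 2.27 (2.18 to 2.37), and *Pbx3* at 1692 and 1103, a ratio of 1.53 (1.496 to 1.574). For *Pbx3* the cycling cluster (1663 to 1722) was thus level with contractile-like nuclei, at 1679 (1648 to 1710). *Meis1* (1.22), *Pknox1* (1.15), *Pknox2* (1.15) and *Pbx2* (1.11) differed less, and *Meis3* was lower in the cycling cluster, at 0.508 (0.320 to 0.788). With the larger cluster alone 4 of 7 members were higher than in Leydig-like nuclei, and *Meis2* (1.31) and *Pbx3* (1.26) were no longer called. The share of all genes called was not computed for that cluster, so the count has no background.

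**Figure D2:**
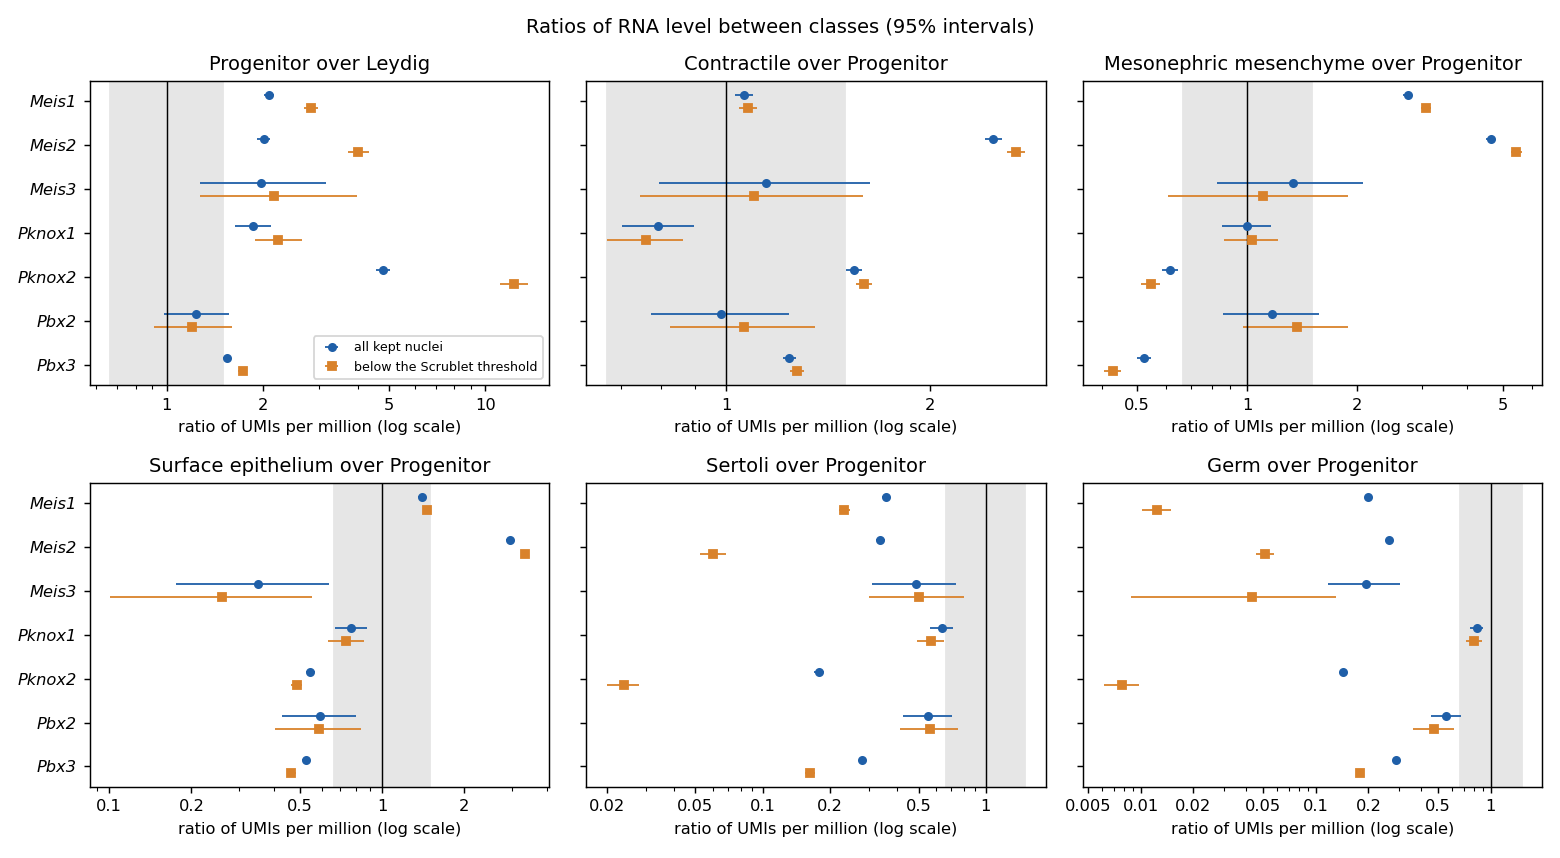
Ratio of RNA level between pairs of classes for each member, on a log axis with exact 95% intervals. Circles are all kept nuclei, squares nuclei below the Scrublet threshold, the black line is a ratio of 1 and the grey band holds ratios under 1.5 in either direction. *Pknox2* lies farthest from 1 between progenitor-like and Leydig-like nuclei, and the squares of *Meis1*, *Meis2* and *Pknox2* lie well left of the circles in the germ-like comparison.

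The other somatic classes of mesenchyme and epithelium were then set against progenitor-like nuclei. In contractile-like nuclei 2 members were higher, where 5.07% of genes were, and 0 were lower, where 7.89% were. These were *Meis2* at 2.48 (2.41 to 2.55) and *Pknox2* at 1.55 (1.51 to 1.59), while *Meis1* was 1.06 and *Pbx3* 1.24. In mesonephric mesenchyme-like nuclei *Meis2* was 4.64 (4.50 to 4.78) and *Meis1* 2.75 (2.67 to 2.83), 2 members higher where 6.71% of genes were. Against them *Pknox2* at 0.614 (0.583 to 0.645) and *Pbx3* at 0.523 (0.5002 to 0.5463) were lower, 2 members where 9.92% of genes were. The mesonephric class thus had more *Meis1* and *Meis2* RNA and less *Pknox2* and *Pbx3* RNA than progenitor-like nuclei. In surface epithelium-like nuclei *Meis2* alone was higher, at 2.93 (2.85 to 3.02), where 11.8% of genes were, and 4 members were lower, where 11.9% were. The lower members were *Meis3* (0.350), *Pbx3* (0.525), *Pknox2* (0.546) and *Pbx2* (0.593), and *Meis1* was not called at 1.40. These calls are against both progenitor-like clusters together. The larger of them alone had 792 CPM of *Meis1*, 364 of *Meis2* and 1103 of *Pbx3*, below the levels of the joined class. Calls against that cluster alone were not made for these classes.

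Inside the testis cords the members were lower. In Sertoli-like nuclei, the supporting cells of the cords, all 7 members were lower than in progenitor-like nuclei, where 18.3% of 11919 genes were, and 0 were higher, where 22.7% were. *Pknox2* was at 0.179 (0.170 to 0.189), *Pbx3* at 0.280, *Meis2* at 0.337 and *Meis1* at 0.356, and *Pknox1* was closest, at 0.635 (0.566 to 0.713). Below the threshold *Pknox2* was 0.0238 (0.0201 to 0.0280) and *Meis2* 0.0598 (0.0522 to 0.0683). In germ-like nuclei 6 of 7 were lower, where 22.6% of 13365 genes were, and 0 were higher, where 35.2% were. *Pknox1* was the member not called, at 0.829 (0.762 to 0.902). *Pknox2* was 0.144, *Meis3* 0.193, *Meis1* 0.200, *Meis2* 0.262, *Pbx3* 0.288 and *Pbx2* 0.557. Without the germ-like cluster of 78 nuclei *Meis1* was 0.109 and *Pknox2* 0.0866, and below the threshold they were 0.0124 (0.0102 to 0.0149) and 0.00782 (0.00615 to 0.00981). The cluster of 78 nuclei itself had 422 CPM of *Meis1* and 283 of *Pknox2*, against 68.9 to 105 and 57.4 to 83.3 in the other 2 germ-like clusters.

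Of 9 further TALE genes on a fixed list, the *Irx* genes, *Mkx*, *Tgif1* and *Tgif2*, only the last 3 had enough UMIs to compare. None of the 3 was called higher in progenitor-like than in Leydig-like nuclei, where 21.8% of all genes were, and 2 were lower, where 19.1% were. With 3 genes these counts cannot be told from those shares. *Mkx*, known from tendon, had 33.2 CPM in progenitor-like nuclei and 120 in the Leydig-like class, for a ratio of 0.276 (0.249 to 0.306). *Tgif1*, which binds the same core as MEIS and is known as a repressor in TGF-beta signalling, had a ratio of 0.660 (0.536 to 0.812). It was highest in Sertoli-like nuclei at 62.4, which was 4.91 times the progenitor-like level (4.20 to 5.75). *Tgif2* was not called in that comparison. Of 39 *Hox* genes, which encode the partners of PBX proteins, 15 could be compared between progenitor-like and Leydig-like nuclei, and 13 were higher and 2 lower in progenitor-like nuclei, against 21.8% and 19.1% of all genes tested. The 3 *Hox* genes with the most UMIs were *Hoxd3* at 3.19 (2.87 to 3.55), *Hoxd4* at 2.69 (2.40 to 3.03) and *Hoxc4* at 3.19 (2.74 to 3.73). In mesonephric mesenchyme-like nuclei, where *Meis1* and *Meis2* peaked, 16 *Hox* genes could be set against the progenitor-like level, and 6 were higher, 4 lower and 6 not called, where 6.71% of all genes were higher and 9.92% lower. Of the 3 above, *Hoxd3* was at 0.465 and *Hoxd4* at 0.520 of that level, and *Hoxc4* was not called at 0.914 (0.786 to 1.06). All 15 *Hox* genes compared were lower in germ-like than in progenitor-like nuclei (22.6% of all genes), as were 14 of 15 in Sertoli-like nuclei (18.3%).

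Genes whose level over the 12 classes was most like that of each member were named by Pearson's r on the scale log2(CPM + 1) among 9696 genes. These are descriptions of 1 library whose classes share free RNA. *Zfp503* (0.971) came closest to *Meis2*, *Gria3* (0.957) to *Meis1*, *Adcy2* (0.976) to *Pknox2* and *Efemp2* (0.965) to *Meis3*. *Tshz3* (0.965) and *Eln* (0.963), the gene for elastin, followed for *Pknox2*, *Cacna1g* (0.935) and *Prkca* (0.933) for *Meis2*, *Col4a5* (0.952) and *Tenm4* (0.938) for *Meis1*, and *Fmnl2* (0.938) and *Trerf1* (0.928) for *Meis3*. The closest to *Pbx3* was *Gm15261* (0.877), before *A4galt* (0.876) and *Gna14* (0.868). For *Pbx2* it was *Dennd4b* (0.870), before *A330040F15Rik* (0.807) and *Acrbp* (0.806), and for *Pknox1* it was *Pdia4* (0.831), before *Gabra3* (0.819) and *Fn1* (0.791). Among the members themselves *Meis1* and *Meis2* were the most alike (r = 0.90), followed by *Meis3* and *Pknox2* (0.84) and *Meis2* and *Pknox2* (0.77). *Meis3* had 285 UMIs in all, under the 500 required of the genes compared with it, so each r of *Meis3* carries much counting error. *Pbx2* and *Pknox1* were the least alike (0.04). *Pbx2* had 6 UMIs in erythroid-like, 13 in pericyte-like and 17 in immune-like nuclei, so its r values also carry much counting error. Each r is for all kept nuclei, and none was computed below the doublet threshold.

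In progenitor-like and contractile-like nuclei members were found together about as often as their separate shares imply. In Sertoli-like and germ-like nuclei the joint share was above the product for all 5 pairs examined. For *Meis1* and *Pbx3* in Sertoli-like nuclei the interval (10.26% to 14.87%) held the product of 10.29%. Pairs of other genes were not examined, so this count has no background. After thinning, 34.6% of progenitor-like nuclei held both a *Meis1* and a *Meis2* UMI, where the product of the shares was 34.2%. In germ-like nuclei it was 3.50% against 1.09% and in Sertoli-like nuclei 6.76% against 4.02%. For *Meis2* and *Pknox2* the joint share was 36.6% of progenitor-like nuclei against 35.0%, and 70.1% of contractile-like nuclei against 69.0%. In Sertoli-like nuclei it was 4.95% against 1.27% and in germ-like nuclei 2.57% against 0.855%, and in the Leydig-like class 8.63% against 5.45%. Of these classes 15.1%, 23.5% and 20.03% of nuclei lay past the doublet threshold. The germ-like and Sertoli-like classes also join clusters of unlike detection. After thinning, *Meis1* was found in 35.9% of the germ-like cluster of 78 nuclei, against 9.25% and 6.63% of the others. *Pknox2* was found in 20.2% of the smaller and 7.99% of the larger Sertoli-like cluster. The part of doublets and of joined clusters in the joint shares was not tested.

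Promoter chromatin was then set against RNA, as fragments within 1 kb of the gene start per 1000000 fragments of the class at peaks (FPM). Promoters of the members varied less between classes than their RNA. Over the 7 classes of at least 300 nuclei, the highest and the lowest level of *Meis2* RNA differed by 17.7 fold and its promoter by 2.67 fold. The same ranges were 13.7 and 1.67 fold for *Meis1*, 10.7 and 2.09 for *Pknox2*, 6.92 and 2.47 for *Meis3*, 4.43 and 1.58 for *Pbx3*, 2.11 and 1.48 for *Pbx2*, and 1.87 and 1.38 for *Pknox1*. These ranges are for all kept nuclei. Below the doublet threshold the germ-like lows were 27.5 CPM for *Meis2*, 10.6 for *Meis1* and 6.78 for *Pknox2*, so their RNA ranges were much wider there. Over 7525 genes the median ranges were 2.21 fold for RNA and 1.64 fold for the promoter peak, counted there as cut sites. Counted in that way, the promoter peak ranged 3.49 fold for *Meis2*, 2.33 for *Pknox2*, 2.32 for *Meis1*, 1.55 for *Pbx3* and 1.42 for *Pknox1*. *Meis3* (2.78) and *Pbx2* (2.005, close to its RNA range) had fewer than the 1000 UMIs required of those 7525 genes.

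Between progenitor-like and Leydig-like nuclei a promoter difference was detectable by fragments for 1 of the 7 members, *Pknox1*. *Pknox2* was 1.09 at the promoter (0.798 to 1.53, from 218 and 48 fragments), with RNA at 4.77. *Meis1* was 0.959 (0.688 to 1.36), *Meis2* 1.15 (0.819 to 1.66), *Meis3* 1.30 (0.822 to 2.16), *Pbx2* 1.10 (0.819 to 1.49) and *Pbx3* 0.901 (0.710 to 1.15). Each of these 6 intervals included 1, so no difference was detectable at these promoters at this depth. *Pknox1* was the member whose promoter interval excluded 1, and it went against its RNA. Its promoter, the CG-rich sequence printed above, had 142 FPM in progenitor-like nuclei and 196 in the Leydig-like class, for a ratio of 0.725 (0.622 to 0.848, from 668 and 222 fragments), while its RNA ratio was 1.87.

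By fragments the promoter and RNA ratios lay on the same side of 1 for 4 of the 7 members. The window stood at the most upstream deposited start, and most of the *Meis2* RefSeq promoter lay outside it. With a window over all annotated starts *Meis2* was 1.13 (0.845 to 1.52). *Pbx2* was then 0.974 (0.781 to 1.22), no longer on the side of its RNA. To set the promoter ratios beside all genes, cut sites in the deposited promoter peaks were counted, with intervals that are too narrow since cuts mostly come in pairs. By cut sites 5 of 7 members were on the side of their RNA, as were 62.6% of 10670 genes, and the peak ratio was above 1 for 62.2% of 2279 genes with RNA higher in progenitor-like nuclei. The interval excluded 1 for 2 of 7 members, *Pknox1* at 0.706 (0.623 to 0.801) and *Pbx2* at 1.39 (1.13 to 1.71), and for 32.5% of genes. By fragments within 250 bp of the start the *Pbx2* ratio was 0.723 (0.296 to 2.01), on the other side of 1. The members' promoters were thus near the background of all genes in this comparison.

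**Figure D3:**
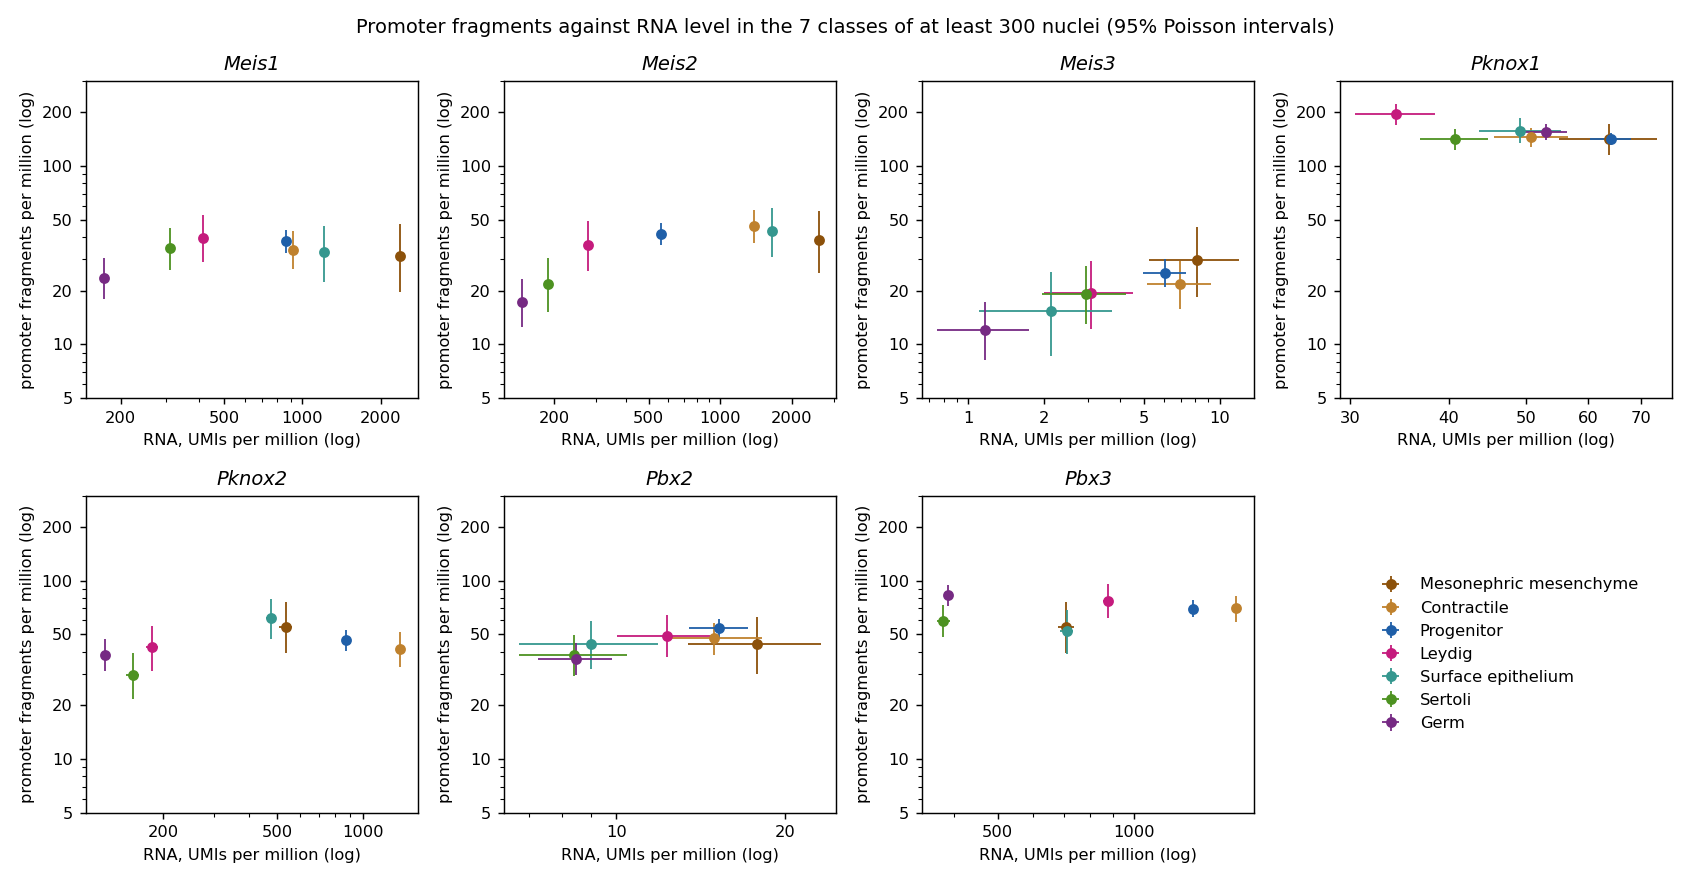
Promoter fragments within 1 kb of the start, in FPM, against RNA level in CPM, both on log axes, for the 7 classes of at least 300 nuclei with exact 95% Poisson intervals. Points of *Meis1* span 1.67 fold in FPM from 173 to 2381 CPM, with the germ-like point the lowest in FPM, and the Leydig-like point of *Pknox1* is its highest in fragments and its lowest in RNA.

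Against progenitor-like nuclei, lower promoter signal was found in the cord classes. By fragments, germ-like nuclei had less at *Meis2* (0.416, 0.292 to 0.581), *Meis3* (0.478), *Meis1* (0.624) and *Pbx2* (0.676), and Sertoli-like nuclei at *Meis2* (0.524, 0.353 to 0.757), *Pknox2* (0.638) and *Pbx2* (0.711). By cut sites in promoter peaks 5 of 7 members were lower in germ-like nuclei with an interval that excluded 1, where 11% of 11987 genes were, and 4 of 7 in Sertoli-like nuclei, where 16.3% of 10935 genes were. The members not lower in either class by fragments were *Pknox1*, whose RNA was also closest to the progenitor-like level, and *Pbx3*, which by cut sites was lower in Sertoli-like nuclei at 0.722 (0.593 to 0.873). For *Pbx3*, whose RNA in germ-like nuclei was 0.288 of the progenitor-like level, the promoter ratio of germ-like over progenitor-like nuclei was 1.19 (0.992 to 1.42). In mesonephric mesenchyme-like nuclei, where *Meis1* and *Meis2* RNA was 2.75 and 4.64 times the progenitor-like level, their promoters were at 0.822 (0.502 to 1.28) and 0.921 (0.592 to 1.38).

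Promoter peaks included, 167 deposited peaks lay in or within 100 kb of a member, from 15 for *Meis3* to 30 for *Meis2* and 47 for *Pknox2*. The peaks outside the promoter that differed most between their highest and next class were read for each gene, so these are extremes chosen from many, and their intervals do not allow for that choice. The *Pknox2* peak printed above (chr9:36942324-36943202, in an intron, 204644 bases past the start) had 30.1 FPM in Sertoli-like nuclei (22.2 to 40.1, 47 fragments). Its next class was the mesonephric mesenchyme-like one with 5.68, a ratio of 5.31 (1.94 to 20.3), before progenitor-like (5.52), germ-like (2.81), Leydig-like (2.64) and contractile-like nuclei (1.01), and surface epithelium-like nuclei had 0 fragments, which allows up to 3.79 by the exact interval. The class with the most open chromatin at this peak was thus one where *Pknox2* RNA was low, at 157 CPM or 20.6 below the threshold.

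The *Meis2* peak printed above, with the PBX and HOX match, lies in *BC052040* beyond the 3' end of *Meis2* (chr2:115775341-115776191, 290073 bases from the start). It had 28.4 FPM in mesonephric mesenchyme-like nuclei (17.3 to 43.8, 20 fragments), the class with the highest *Meis2* RNA, and 8.62 in contractile-like nuclei, a ratio of 3.29 (1.64 to 6.69). The other classes lay between 5.52 in progenitor-like and 1.61 in germ-like nuclei. Another *Meis2* peak (chr2:115808336-115809235) was also highest in the mesonephric class, with a ratio of 3.999 to the next (1.37 to 12.4, from 10 and 7 fragments). Of 28 *Meis2* peaks with at least 50 cut sites, promoter left out, 11 (39.3%) were by cut sites highest in mesonephric mesenchyme-like nuclei, as were 16.3% of all 99936 such peaks, and 0 were highest in progenitor-like nuclei, as were 10.7%. The mesonephric share was also above that of all peaks, on few peaks each, for *Pbx2* (6 of 19, 31.6%), *Meis3* (4 of 13, 30.8%), *Meis1* (5 of 17, 29.4%) and *Pknox1* (5 of 18, 27.8%). It was near that of all peaks for *Pknox2* (9 of 46, 19.6%) and *Pbx3* (2 of 14, 14.3%). For the peaks near *Meis3* and *Pknox1* the leading class was germ-like, with 6 of 13 peaks (46.2%) and 6 of 18 (33.3%), against 17.6% of all peaks. Most peaks assigned to the short genes lay outside them. Those counted as lying in the gene were 1 of 15 for *Meis3*, 1 of 19 for *Pknox1* and 0 of 21 for *Pbx2*. For *Pknox2* they were 32 of 47. No class stood out for the 46 peaks of *Pknox2*. By cut sites 10 were highest in the Leydig-like class and 9 in the mesonephric one, and by fragments the numbers were 9 and 10.

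**Figure D4:**
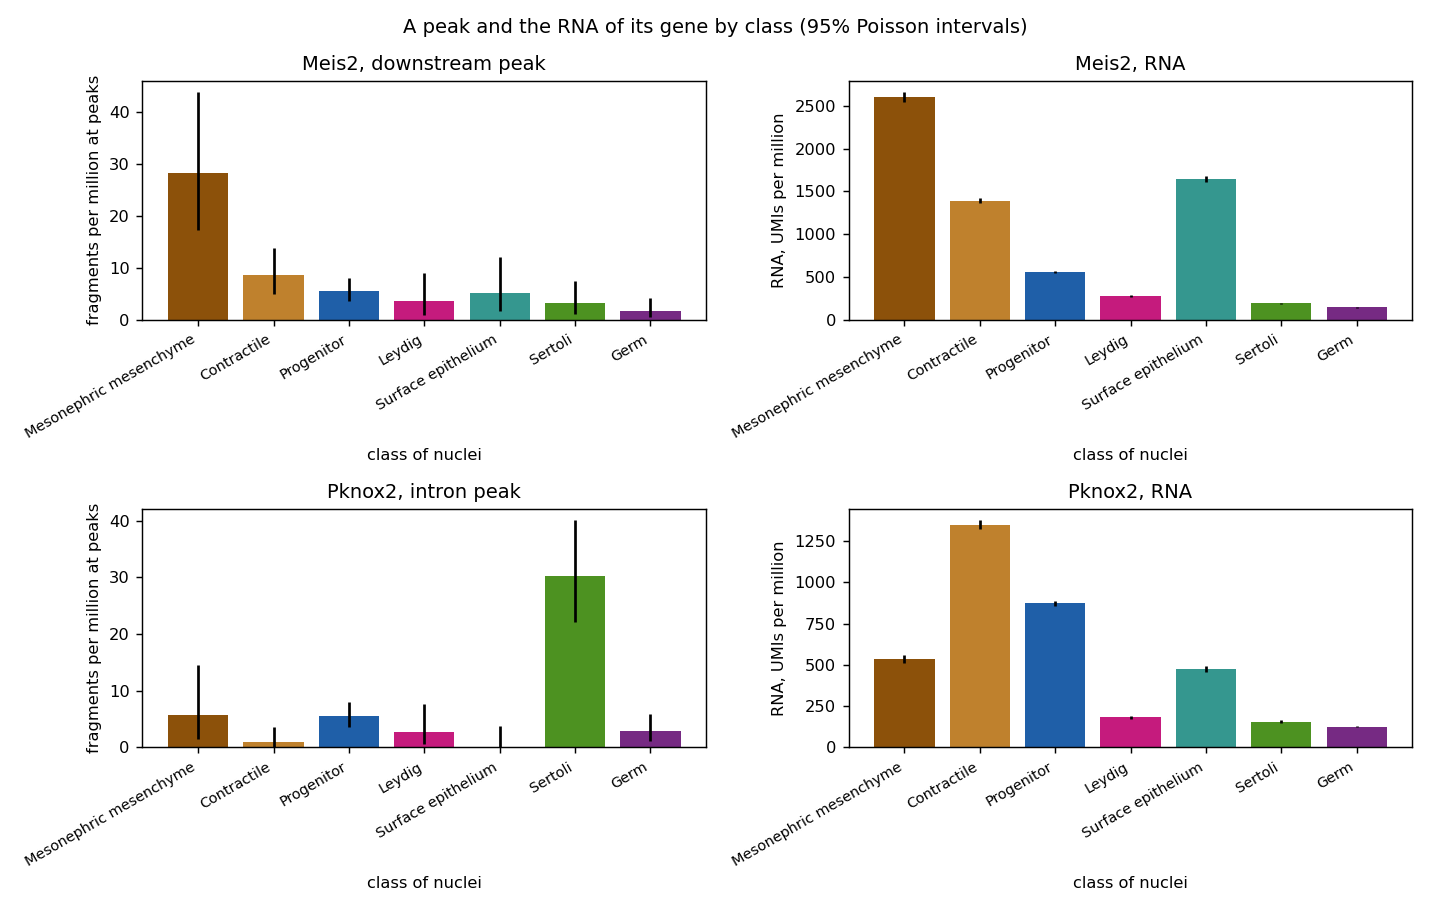
Left, FPM in 7 classes at the distal *Meis2* peak and at the *Pknox2* intron peak. Right, RNA of the same gene in CPM, with exact 95% Poisson intervals. The *Meis2* peak and RNA are both highest in mesonephric mesenchyme-like nuclei, while the *Pknox2* peak is highest in Sertoli-like nuclei, where its RNA is among the lowest.

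Other peaks were named by the same rule. Near *Pknox1* a peak 78479 bases past the start (chr17:31642759-31643667) had 11.7 FPM in germ-like and 2.57 in Sertoli-like nuclei, a ratio of 4.54 (1.60 to 17.8). A peak 64465 bases past the *Pbx2* start (chr17:34655271-34656192) had 89.4 in mesonephric mesenchyme-like and 38.5 in contractile-like nuclei, 2.32 (1.63 to 3.28), on 63 and 76 fragments. A peak in *Tmem218*, upstream of *Pknox2*, had 11.3 in surface epithelium-like nuclei, 2.81 times the germ-like level (1.08 to 7.39). For *Meis1*, *Meis3* and *Pbx3* the peaks so chosen had intervals that included 1, with ratios of 1.61 to 2.74.

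The DNA letters bound by the family were counted last, in the central 300 bases of peaks on both strands, with classes made from RNA alone so that the peaks had no part in them. TGACAG was held by 19.4% of all 109183 peaks, by 19.2% of RefSeq promoters and by 31 of the 167 peaks near members (18.6%, 13 to 25.3). TGATTNAT was held by 4.17% of all peaks, 3.22% of promoters and 5 of the 167 (2.99%, 0.979 to 6.85). Its share was 7.80% (6.93 to 8.75) among 3448 peaks at least 2 fold higher in mesonephric mesenchyme-like than in progenitor-like nuclei, against 3.61% of all peaks with at least 50 cut sites over both classes together and 4.19% of those lower. Among peaks higher in contractile-like than in progenitor-like nuclei it was 7.11% (6.07 to 8.27), and among those lower 3.95%. Peaks higher in progenitor-like than in Leydig-like nuclei held it in 5.38% (4.97 to 5.83) and those lower in 3.62% (3.08 to 4.22). The direction was the other way for the cords: 2.81% of peaks higher in Sertoli-like and 2.25% of those higher in germ-like nuclei held it, against 5.95% and 5.89% of those lower.

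TGACAG varied less in proportion. It stood at 20.1% of peaks higher and 22.3% of peaks lower in progenitor-like than in Leydig-like nuclei, both above the 18.4% of all peaks compared. Among the 5 comparisons, only peaks higher in germ-like nuclei fell below the share of all peaks compared, with 14.4% against 18.1%, while 20.9% of peaks lower in germ-like nuclei held the core. The higher peaks had more GC, with a median of 54.7% against 48.0% in the lower ones. Median GC was 49.3% in the peaks higher and 48.7% in those lower in the mesonephric class, and 48.0% and 47.7% for the contractile-like class. It was 48.7% in peaks higher and 51.3% in peaks lower in progenitor-like than in Leydig-like nuclei, and 51% and 48.0% in those higher and lower in Sertoli-like nuclei, so the set with more TGATTNAT had less GC there. A match describes the letters and does not show that a factor was bound, and whether base composition has a part in these shares was not tested.

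**Figure D5:**
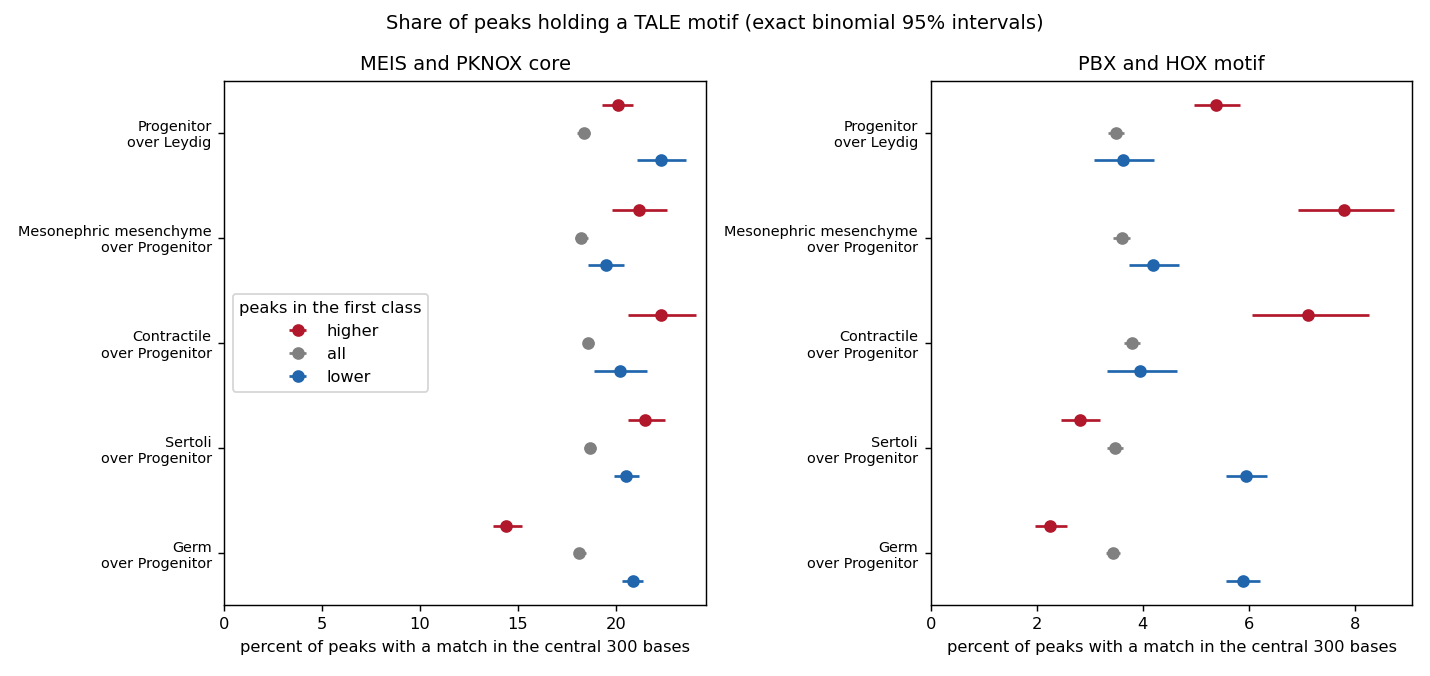
Percent of peaks with a match to TGACAG (left) or TGATTNAT (right) in their central 300 bases, with exact binomial 95% intervals, for peaks higher or lower by at least 2 fold in the first class and for all peaks compared. The share of TGATTNAT is highest, 7.80%, in peaks higher in mesonephric mesenchyme-like nuclei and lowest, 2.25%, in peaks higher in germ-like nuclei.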

How the data were processed

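Nuclei of mouse testes at E14.5 were profiled by 10x multiome. The authors ran both libraries through Cell Ranger ARC 2.0.1 with its defaults and the mm10 reference. The deposited matrix holds raw counts per barcode, as UMIs per gene and transposase cut sites per peak (1 peak set for the whole library), before filters on quality, doublets or ambient RNA. Each unique fragment has, per the file headers, a count of its read pairs, 1.09 on average, so the ATAC library was not sequenced to saturation.

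The quality thresholds were taken from the study's methods (over 500 genes, 250 to 25000 fragments at peaks, over 20% of fragments at peaks, under 10% mitochondrial, 10% ribosomal protein and 0.5% haemoglobin UMIs). The study's limit on fragments in blacklist regions was not applied here. The top 470 of 7668 nuclei (6.13%) by Scrublet score in scanpy 1.11.5 were removed, which stands in for the study's doublet caller. No ambient RNA was removed. The automatic Scrublet threshold marked 1345 (17.5%).

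Clusters came from weighted nearest neighbours of both assays in Seurat 5.3.0 (R 4.3.3, irlba 2.3.5.1, resolution 0.6). Members and peaks near them were left out. Clusters took the class with the highest marker score. The progenitor-like and germ-like clusters and the smaller endothelial-like one had none of their own markers among their 10 leading genes by fold.

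UMIs and fragments were summed per class. Levels have exact Poisson intervals, ratios exact conditional binomial intervals and shares exact Clopper-Pearson intervals at 95%, from scipy 1.17.1. No p-value was computed, since nuclei of 1 library do not replicate a condition. On simulated data over 11688 genes of the progenitor-like and Leydig-like comparison, 99% of genes raised and 100% of genes lowered 2 fold were called, and 0.444% of unchanged genes. The simulated class sums followed the Poisson model that the intervals assume. These rates therefore leave out spread between nuclei and are not error rates for the real data. Named genes were all members, a fixed list of other TALE genes, the 3 *Hox* genes with the most UMIs, and the 3 genes most like each member. Named peaks were, for each member, the 2 outside the promoter with the largest ratio of the highest to the next class. The members and lists were chosen with earlier results of these data known. Alternatives covered clustering, doublets, thresholds, ambient RNA, thinning, fold and promoter window, and those on the larger progenitor-like cluster, the Scrublet threshold on fixed clusters, the germ-like cluster of 78 nuclei and all annotated starts were chosen after seeing the data.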

Additional observations from a re-analysis of the deposited data

How the results depend on the processing

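No paired analysis was possible because each assay has 1 library. Over 13 alternatives the number of members higher in progenitor-like than in Leydig-like nuclei ran from 3 to 6 and the number lower stayed at 0. A fold of at least 2, a stricter call by construction, gave 3 (*Pknox2*, *Meis1* and *Meis2*). The larger progenitor-like cluster alone gave 4, as *Meis2* and *Pbx3* were no longer called. The share of all genes called higher or lower in RNA was computed for the main setting only. The number of members highest outside the interstitial and mesenchymal classes, 1 (*Pbx2*), was 0 with clusters from the RNA alone and with nuclei over 50000 UMIs left out, on 17 immune-like UMIs. The share of all genes highest outside these classes was not computed, so this number has no background. The number with promoter and RNA on the same side ran from 3 to 5 over 12 alternatives.

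Among single members, *Meis2* fell under the fold of 1.5 at 1.31 with no doublets removed, 1.27 at stricter minimums and 1.31 without the cycling cluster. *Pbx3* did so at 1.26 without the cycling cluster, and *Meis3* at 1.23 with a resolution of 0.3 and could not be told from 1 at 1.53 after thinning. At a resolution of 0.3 the largest cluster stayed unnamed, so the progenitor-like class was then the cycling cluster. That resolution is the study's own. Among the named classes the cycling cluster was then the highest for *Pknox2* and *Pbx3*. Whether a contractile-like class was among them is not given here, so that class need not have been outranked. The ratio of *Pknox2* ran from 3.37 to 12.3, of *Meis1* from 1.75 to 2.85, of *Meis2* from 1.27 to 4.27, of *Pknox1* from 1.76 to 2.33 and of *Pbx3* from 1.26 to 1.95. The *Pknox1* promoter ratio stayed between 0.652 and 0.836, and that of *Pbx2* was 0.723 within 250 bp of the start. Beyond what is named here the cause of these shifts was not tested. No direction reversed for a called value. In germ-like against progenitor-like nuclei 6 members were lower under both alternatives run.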
